A study of Mus musculus with 40 samples.

Results

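The cytoplasmic ribosomal protein genes were taken as the rows whose gene ID maps to a protein-coding mouse gene with a ribosomal protein symbol (Rpl or Rps with a number, Rplp0, Rplp1, Rplp2, Rpsa and Fau). The rule gave 84 genes of the 45792 mouse gene IDs in the table, 52 of the large subunit and 32 of the small one. The rule reads gene names and no measured value. Pseudogene rows were left out, as were 3 symbols that fit the pattern but are not coding genes. Rack1 and Rps3a1, which also encode ribosomal proteins, fall outside the pattern and are given separately.

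Cytoplasmic ribosomes carry out protein synthesis in the cytosol. Each ribosomal protein is needed in roughly equal number for every new particle, and much of the control over their output acts on the translation of the messages. Many of these messages begin with a cytosine and a run of pyrimidines, the terminal oligopyrimidine or TOP sequence, through which the mTORC1 kinase pathway controls their use. In the colon, dividing cells near the crypt base make many ribosomes, and cells lose this activity as they move towards the surface.

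Mice had been inoculated with 2000000 sorted Tritrichomonas musculis (abbreviated T.mu), a flagellate that lives in the mouse gut, or left without it as controls. RNA came from colonic epithelial cells (called epithelium here) or from whole colonic tissue (total tissue), taken 3, 14 or 48 days later. The 12 groups of preparation, day and inoculum held 3 libraries each at days 3 and 14 and 4 each at day 48, and the labels tie each library to a litter. Strain, sex and age of the mice are not given in the sources used here, and the design text speaks of 3 mice per group, so that the 4 libraries of day 48 are separate mice rests on the litter labels.

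Epithelial libraries were 170291 to 2866306 mouse counts deep and tissue libraries 220717 to 6756616, and 3 epithelial and 4 tissue libraries lay under 400000. The members took 2.17% to 3.79% of the mouse counts of an epithelial library and 0.654% to 1.26% of a tissue library. Ribosomal RNA rows and Lars2 took 25.6% to 46.6% in epithelium and 8.96% to 29.5% in total tissue. Pseudogenes that carry the name of a member, 275 rows, held 1.39% to 2.19% of the counts on both together. Copies annotated under other names were not counted, so this share is a lower limit. Reads of a coding gene and its near-identical copies cannot be separated by the counts, and values of members with such copies carry that uncertainty. After the filter on low counts 80 members were tested in each fit. The other 4 were Rpl10l with 4 counts over all 40 libraries, Rpl39l with 11, Rpl3l with 16 and Rpl24 with 98. Rpl10l, Rpl39l and Rpl3l are paralogs known from testis or muscle, whereas Rpl24 is a regular part of the large subunit.

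RefSeq start regions (GRCm38.p6) were found for 64 of the 84 members. They are shown for genes on which the later comparisons turn, because the TOP start is the sequence feature this gene family is known for. Each line runs 5′ to 3′ on the gene strand, from 30 bases before the RefSeq start to 30 bases from the start onward, with the longest run of C and T within 25 bases of the start in capitals.
Rpl37a, chr1:72711230-72711289, plus strand: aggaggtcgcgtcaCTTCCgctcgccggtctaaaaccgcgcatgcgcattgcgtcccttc
Rpl34, chr3:130730369-130730428, minus strand: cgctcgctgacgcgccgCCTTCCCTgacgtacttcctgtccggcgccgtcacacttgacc
Rpl34, second start, chr3:130730308-130730367, minus strand: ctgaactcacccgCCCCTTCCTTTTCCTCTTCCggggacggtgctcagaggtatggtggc
Rps28, chr17:33824533-33824592, minus strand: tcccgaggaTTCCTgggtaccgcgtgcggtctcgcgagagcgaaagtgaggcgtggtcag
Rps27, chr3:90213619-90213678, minus strand: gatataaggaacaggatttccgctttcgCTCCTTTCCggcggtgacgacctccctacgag
Rpl39, chrX:37085193-37085252, minus strand: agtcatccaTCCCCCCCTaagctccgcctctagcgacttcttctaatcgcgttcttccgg
Rpl22l1, chr3:28805478-28805537, plus strand: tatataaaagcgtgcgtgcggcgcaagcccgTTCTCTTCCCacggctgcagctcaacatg
Rps26, chr10:128626477-128626536, minus strand: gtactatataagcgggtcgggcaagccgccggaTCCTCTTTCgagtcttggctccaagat
Rpl7a, chr2:26910777-26910836, plus strand: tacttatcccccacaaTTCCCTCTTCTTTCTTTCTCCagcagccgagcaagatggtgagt
The longest runs printed are the 21 pyrimidines of Rpl7a and the 20 at the second start of Rpl34. In epithelium at day 14 the log2 fold change with T.mu was -0.01 ± 0.24 (SE) for Rpl7a, -1.02 ± 0.24 for Rpl34 and -1.20 ± 0.26 for Rpl37a, whose printed run is 5. The printed runs did not order these 3 genes, which were picked after their values were seen. GENCODE M21 places the start of Rpl37a at 72711290, after the last base of its printed window. Its run of 5 therefore need not be that of the message.

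A run of at least 8 pyrimidines within 25 bases of the start was present in 34 of the 64 members (53.1%) and in 22.3% of 27025 genes with a RefSeq start region. The letters CTTTC stood on the gene strand in 20 of 64 members (31.2%) against 7.87% of all genes, and on the other strand in 9.38% against 7.07%. The letters CTTCC stood on the gene strand in 31.2% of members against 12.4% of all genes, and on the other strand in 21.9% against 13.9%. Both motifs can lie inside a pyrimidine run and can share their end letters, so these counts overlap. A match describes letters in a window and shows neither a start site in use nor a bound factor.

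The uninoculated mice set the level of these genes in both preparations. Of 80 members, 78 were higher and 1 was lower in control epithelium than in control total tissue (edgeR quasi-likelihood test with Benjamini-Hochberg adjustment over all genes, threshold 0.05), where 23.1% of 11834 genes were higher and 29.7% lower. The member median was a log2 difference of 1.67, against -0.07 over all genes tested. In 49 members the lowest of 10 epithelial controls lay above the highest of 10 tissue controls, a pattern held by 4.21% of all genes.

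Rpl39, a small protein that lines the tunnel through which the new chain leaves the ribosome, had the largest difference. Its level, in TMM-scaled CPM (counts of a gene relative to the scaled library total), had a lowest value of 785, a median of 1087 and a highest of 1295 over the 10 epithelial controls. Over the 10 tissue controls it had 39.8, 68.7 and 87.9, so the preparations were far apart, with a log2 difference of 3.97 ± 0.16 (SE; adjusted p = 4.21e-36, edgeR). Rps28, Rps27 and Rpl32 followed with log2 differences of 3.23 ± 0.15, 3.00 ± 0.14 and 2.96 ± 0.13.

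Rpl7l1, a paralog of Rpl7 with a role in ribosome assembly, was the one member lower in epithelium. Its epithelial controls had 13.1 CPM at the lowest, 28.3 at the median and 37.0 at the highest, against 27.8, 33.0 and 52.9 in tissue, with overlap (log2 difference -0.47 ± 0.21, adjusted p = 0.0486, edgeR). Rpl7a (0.51 ± 0.15), Rpl8 (0.54 ± 0.13) and Rps9 (0.63 ± 0.13) had the smallest differences among the members that were higher. The 12 members with a transcript under 500 bases had a median log2 difference of 2.15 and the 21 members of 1000 to 2000 bases one of 1.49, while other coding genes of the same classes had medians of 1.22 and -0.25.

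Markers of other cells bear on what each preparation held. Of 10 smooth muscle markers 10 were lower in control epithelium, as were 10 of 10 fibroblast and matrix markers, with median log2 differences of -7.80 and -6.27. Of 12 epithelial markers 9 were also lower and 1 was higher there, with a median of -1.37, whereas 17 of 20 tested stem and proliferating cell markers were higher, with a median of 1.73. The part of these cells in the level of the members was not tested, and in such bulk samples fewer cells of a type and less RNA per cell cannot be told apart.

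In epithelium at day 14 the ribosomal protein messages were lower with T.mu in nearly all of the family. The members took 3.73%, 3.79% and 3.63% of the mouse counts in the 3 control libraries and 2.52%, 2.90% and 2.91% in the 3 T.mu libraries. The groups did not overlap, and the mean share was 25.3% lower with T.mu. Of the 80 members 74 had a log2 fold change below 0, against 49.4% of all genes tested, and the member median was -0.62 against 0.01.

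**Figure D1:**
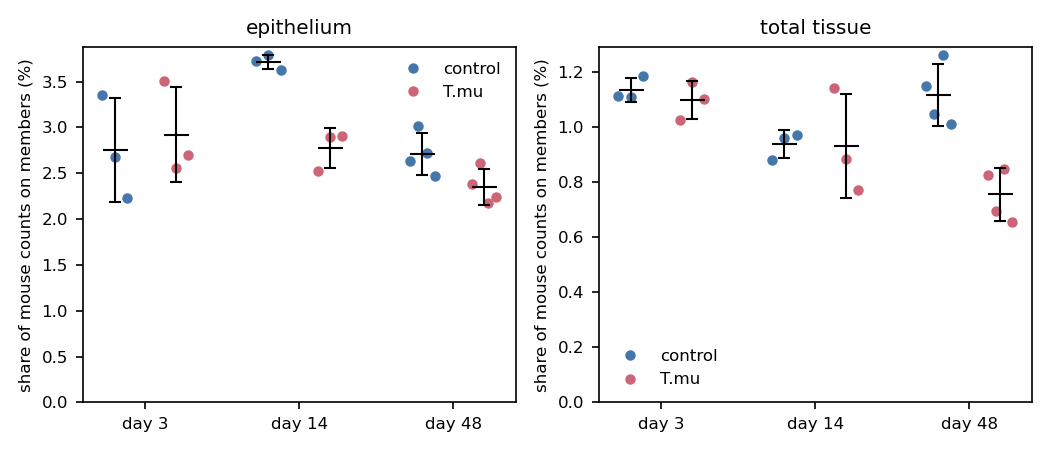
Share of mouse counts on the 84 members in each library (vertical axis, percent, from 0) by day, for epithelium on the left and total tissue on the right; points are libraries, and bars are the mean ± SD of 3 or 4 libraries. The 3 T.mu libraries of epithelium at day 14 (2.52% to 2.91%) and the 4 of total tissue at day 48 (0.654% to 0.848%) lie below all controls of their day.

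Past the threshold, 6 members fell and 0 rose in epithelium at day 14, where 0.168% of 10119 genes fell and 0.336% rose. At an unadjusted p under 0.05, 50 members were lower, and 10.3% of all genes passed in either direction. By litter, the member median was -0.70, -0.56 and -0.52, with 69, 71 and 75 of 80 members lower. In 61 members every T.mu library lay under every control, against 8.78% of all genes. Large and small subunits did not separate: the median was -0.57 over 48 large-subunit members, of which 4 fell, and -0.65 over 32 small-subunit members, of which 2 fell.

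Rpl37a, a zinc-binding protein of the large subunit (chr1:72711290-72713813, plus strand, 4 exons in GENCODE M21), had the largest fall. It stood at 486, 438 and 362 CPM in controls and at 159, 195 and 207 with T.mu. Every T.mu library was under every control, a 2.29-fold lower level (log2 fold change -1.20 ± 0.26, SE; adjusted p = 0.0085, edgeR).

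Rps28, a small-subunit protein near the exit of the messenger RNA channel (chr17:33819027-33824562, minus strand, 4 exons), had 526, 547 and 354 CPM in controls and 182, 251 and 242 with T.mu. The groups were apart here too (-1.08 ± 0.25, adjusted p = 0.0183, edgeR). Rps27, a zinc-finger protein of the small subunit (chr3:90212522-90213651, minus strand, 4 exons), had 1587, 1366 and 1282 CPM in controls and 483, 707 and 801 with T.mu (-1.09 ± 0.27, adjusted p = 0.0323).

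Among the other large-subunit genes, Rpl39 had 1195, 916 and 826 CPM in controls and 320, 599 and 460 with T.mu (-1.09 ± 0.27, adjusted p = 0.0318, edgeR). Rpl34, a structural protein (chr3:130726831-130730398, minus strand, 5 exons), had 498, 518 and 452 CPM in controls and 226, 245 and 250 with T.mu (-1.02 ± 0.24, adjusted p = 0.0175). Rpl32, also structural (chr6:115805505-115808747, minus strand, 4 exons), had 1771, 1805 and 1605 CPM in controls and 720, 941 and 906 with T.mu (-1.01 ± 0.25, adjusted p = 0.0302). In all 6 genes the fold lay between 2.02 (Rpl32) and 2.29 (Rpl37a), and no T.mu library reached its controls.

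**Figure D2:**
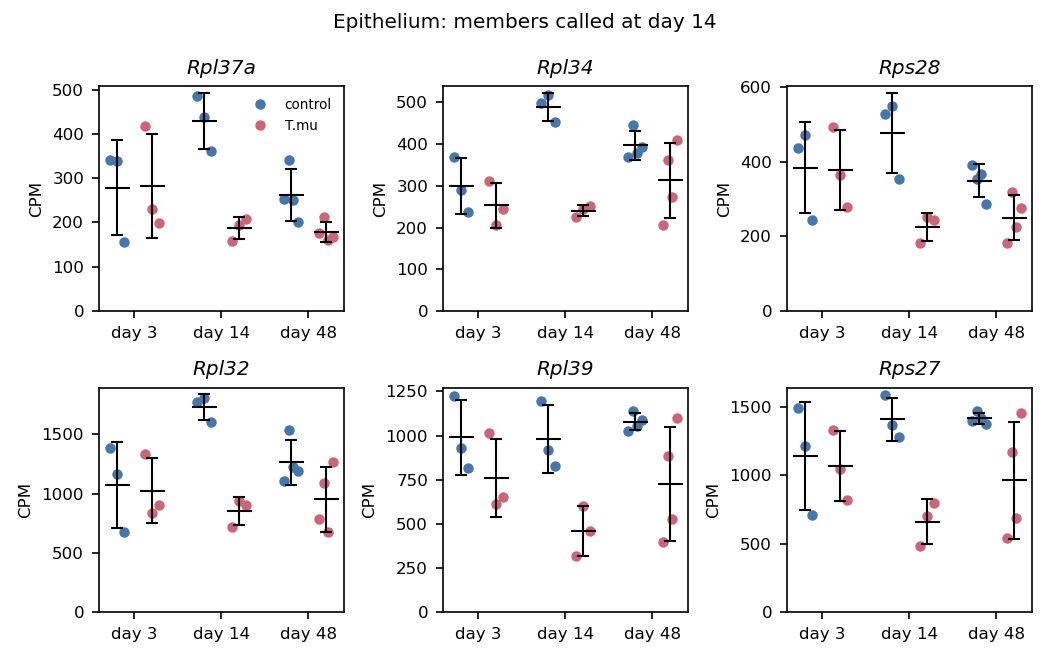
Levels (vertical axes, TMM-scaled CPM, from 0) in epithelial libraries by day for the 6 members that fell at day 14; points are libraries and bars are the mean ± SD. At day 14 control and T.mu libraries separate in each panel, whereas they overlap in each panel at day 3 and at day 48.

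A few members lay near or above 0. Rpl8, which lies close to the catalytic centre, had 531, 447 and 591 CPM in controls and 831, 592 and 593 with T.mu (0.36 ± 0.26, adjusted p = 0.68, edgeR). Rplp0, the base of the stalk that recruits elongation factors, had 842, 666 and 916 CPM in controls and 1206, 843 and 917 with T.mu (0.29 ± 0.25, adjusted p = 0.741). Its stalk partners differed from it in sign, with -0.69 ± 0.24 for Rplp1 and -0.45 ± 0.23 for Rplp2, neither past the threshold (adjusted p = 0.217 and 0.483).

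Rpl5 and Rpl11, which with the 5S RNA form the particle that can bind Mdm2, had log2 fold changes of -0.52 ± 0.29 and -0.43 ± 0.25 without passing the test. Rps27a and Fau, made as fusions to ubiquitin or a ubiquitin-like protein, had -0.69 ± 0.26 and -0.63 ± 0.25, and Rpsa, also known as a laminin receptor, had -0.11 ± 0.24. Rps6, the substrate of S6 kinase, had -0.48 ± 0.29, and Rpl41, a very short peptide, had -0.78 ± 0.24. None of these 7 passed the threshold. Outside the naming rule, Rps3a1 and Rack1 had -0.43 and -0.17 and did not pass either.

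The size of the difference went with transcript length. Across the 80 members the Spearman correlation of the log2 fold change with transcript length was 0.57 and with GC content 0.24, while over all genes it was -0.05 with length and 0.32 with GC content (these are correlations across genes, which share the same libraries). Members are short, with a median of 774.5 bases against 2961 for all genes tested. Each length is of 1 annotated transcript, up to 5179 bases among the members, and need not be that of the expressed message. The 12 members under 500 bases had a median of -0.89 and 49 other coding genes of that class -0.62. From 500 to 1000 bases, 43 members had -0.63 and 529 other genes -0.21, and from 1000 to 2000 bases 21 members had -0.37 and 1994 other genes 0.15. Short transcripts of other kinds were thus lower as well, and the members lay under them in each of these classes. With a correction for GC content and length together with litter as a block, the member median was -0.42 and 11 members fell. Pyrimidine runs at RefSeq starts did not sort the members: the median was -0.58 over 33 members with a run of at least 8 and -0.61 over 27 without. Starts that differ between annotations, as for Rpl37a, limit this split.

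**Figure D3:**
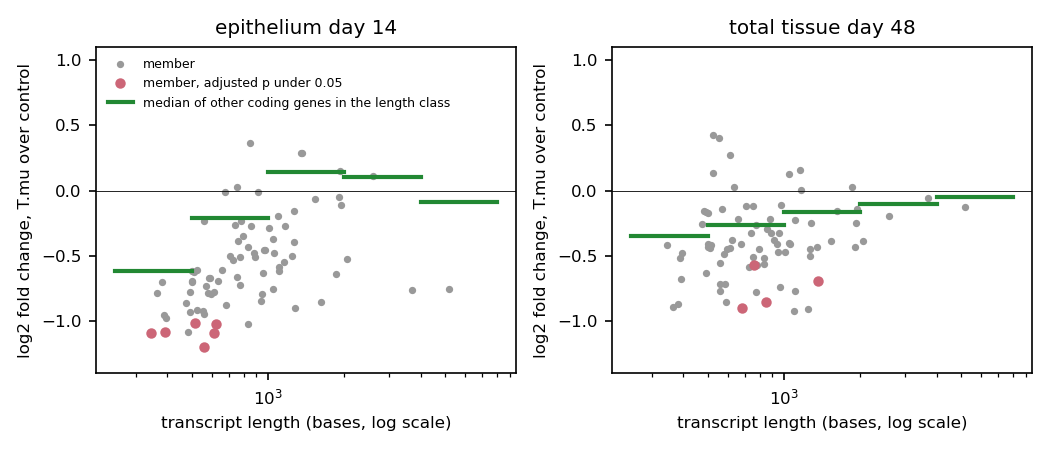
Log2 fold change of T.mu over control (vertical axis) against transcript length (bases, log axis) for the 80 tested members in epithelium at day 14 (left) and total tissue at day 48 (right); green lines are medians of other coding genes in the same length class. In epithelium the members under 500 bases center on -0.89, under the -0.62 of other genes of that length.

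The calls at day 14 changed when single libraries were left out. No member passed without control replicate 1, control replicate 2 or T.mu replicate 1, 2 did without T.mu replicate 2 and 1 did without T.mu replicate 3, while the member median stayed between -0.68 and -0.56. In a fit of the 6 libraries of this comparison alone 34 members fell. The summed level of 12 epithelial markers was 7428 to 11010 CPM in controls and 12920 to 15983 with T.mu, without overlap, none of the 12 past the threshold (median 0.47). Its part in the result was not tested. On the same unscaled measure, smooth muscle markers summed to 36.5 to 46.5 in controls and 28.8 to 40.8 with T.mu. Stem and proliferating cell markers summed to 576 to 624 in controls and 646 to 1046 with T.mu, with 0 of 20 past the threshold and a median of 0.36. These sums did not overlap unscaled. They do once divided by the TMM factors, which were 0.989 for control replicate 1 and 1.08 for T.mu replicate 1. The part of these markers in the result was not tested either.

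At day 3 in epithelium 0 of 80 members passed in either direction (edgeR; 0.0296% of all genes fell and 0.326% rose), and 4 had an unadjusted p under 0.05, against 11.1% of all genes. DESeq2 and limma voom also called 0. In 1 member every T.mu library lay under every control, against 4.55% of all genes. The members took 3.36%, 2.68% and 2.23% of the counts in controls and 3.51%, 2.56% and 2.70% with T.mu, which overlapped. Rpl22l1, a paralog of the RNA-binding protein Rpl22, had 132, 99.1 and 98.3 CPM in controls and 67.2, 35.1 and 32.0 with T.mu. Every T.mu library was lower, and the difference did not pass (-1.27 ± 0.34, adjusted p = 0.094, edgeR). Rpl8 (0.68 ± 0.27, adjusted p = 0.302) and Rpl7 (-0.68 ± 0.28, adjusted p = 0.335) came next by p and lay on opposite sides of 0.

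At day 48 in epithelium 0 of 80 members passed as well (edgeR; 0.0198% of all genes fell and 0.267% rose). DESeq2 and limma voom called 0, and 12 members had an unadjusted p under 0.05, all of them lower, against 4.58% of all genes in either direction. In 3 members every T.mu library lay under every control, against 2.1% of all genes. The share of counts was 2.64%, 3.02%, 2.72% and 2.47% in controls and 2.38%, 2.62%, 2.17% and 2.25% with T.mu, which overlapped, and the member median was -0.22 against 0.01 for all genes. Rpl22, known for binding the messages of its own paralog, had 242, 261, 215 and 253 CPM in controls and 140, 173, 127 and 193 with T.mu. Its groups did not overlap, yet the difference did not pass (-0.62 ± 0.20, adjusted p = 0.455, edgeR). Rplp2 (-0.51 ± 0.20) and Rpl37a (-0.55 ± 0.22) followed, both with an adjusted p of 0.882. By litter, the member median was -0.35, -0.25 and -0.42 in litters 1 to 3 and 0.07 in litter 4.

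The 4 T.mu libraries of epithelium at day 48 fell into 2 pairs. Epithelial markers summed to 11802 and 10161 CPM in replicates 1 and 3 and to 5702 and 4483 CPM in replicates 2 and 4, against 5638 to 7157 in the controls. Rpl39 had 399 and 528 CPM in replicates 1 and 3 and 886 and 1097 in replicates 2 and 4, against 1028 to 1141 in controls. Counts of libraries from different pairs differed by a chi-square per degree of freedom of 27.0 to 61.3, and those within a pair by 6.86 and 8.76. Without replicates 1 and 3 the member median of this day was -0.03 and 0 members passed, and without replicates 2 and 4 it was -0.45 and 4 members passed, all lower (edgeR). Both analyses were chosen after seeing the data, and the part of the marker levels in the result was not tested.

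**Figure D4:**
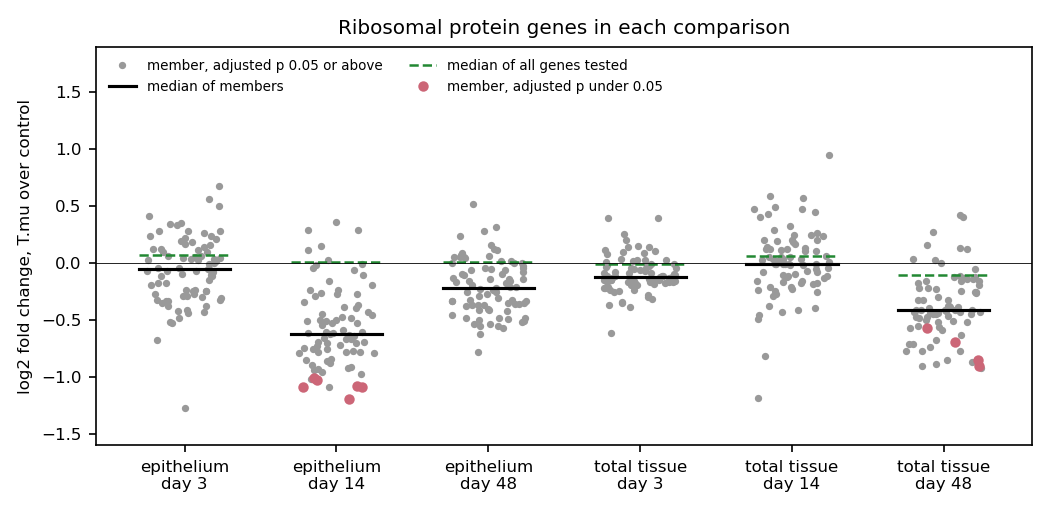
Log2 fold changes of T.mu over control (vertical axis) of the 80 tested members in the 6 daily comparisons; black lines are member medians, dashed lines medians of all genes tested, and red points members with adjusted p under 0.05 (edgeR). The members center on -0.62 in epithelium at day 14 and on -0.41 in total tissue at day 48, and on -0.22 to -0.01 in the other 4.

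Over the 3 days together, 20 members fell and 0 rose in epithelium, where 0.919% of all genes fell and 2.47% rose. The 11 large-subunit genes among them include Rpl22l1, Rpl39, Rpl22, Rpl37a, Rpl34 and Rpl36a, and the 9 small-subunit genes include Rps27, Rps28, Rps21, Rps24, Rps26 and Rps25. The member median was -0.28 against 0.02 for all genes, and 40 members had an unadjusted p under 0.05, against 18.9%. Log2 fold changes had a Spearman correlation with GC content of 0.46 across the members and 0.42 over all genes. At day 3 these correlations were 0.55 and 0.35, and at day 48 they were 0.37 and 0.22. Differences between the days were not detected for any member: the test of equal daily differences called 0 of 80 members and 0 of 10119 genes (edgeR), with 11 members and 4.17% of all genes at an unadjusted p under 0.05.

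Rpl22l1 had the largest fall over days and was lower in 10 of 10 litter pairs (-0.88 ± 0.17, adjusted p = 0.00096, edgeR). At day 14 it had 89.3, 93.4 and 78.6 CPM in controls and 37.7, 50.1 and 50.4 with T.mu. At day 48 its controls had 136, 164, 143 and 214 CPM and the T.mu libraries 63.9, 142, 83.0 and 196, which overlapped. In total tissue Rpl22l1 had log2 fold changes of 0.39, 0.04 and 0.41 at days 3, 14 and 48, none past the threshold. Its paralog Rpl22 fell as well (-0.57 ± 0.13, adjusted p = 0.0073) and was lower in 9 of 10 pairs.

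Rpl39 (-0.68 ± 0.15, adjusted p = 0.0038, edgeR) and Rps26, which sits at the messenger RNA exit (-0.53 ± 0.14, adjusted p = 0.0226), were each lower in 9 of 10 litter pairs. Rpl36a fell by 0.70 on the log2 scale (SE 0.18, adjusted p = 0.0196), and its paralog Rpl36al had -0.28 ± 0.16 (adjusted p = 0.354). Rps27 (-0.58 ± 0.15, adjusted p = 0.0158) and its paralog Rps27l (-0.39 ± 0.15, adjusted p = 0.124) lay closer together. Differences between paralogs were not tested. Rpl8 and Rplp0 were lower in 2 of 10 pairs each, with 0.40 ± 0.15 and 0.36 ± 0.14 (adjusted p = 0.107 and 0.125).

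The count of 20 was 3 without T.mu replicates 1 and 3 of day 48, and without T.mu replicates 2 and 4 of that day 32 members fell and 2 rose. It was 8 without the 3 epithelial libraries under 400000 counts and 10 with litter as a block and a correction for GC content and length. It was 11 and 8 without control replicates 1 and 2 of day 14, 6 without control replicate 1 of day 3 and 12 without control replicate 4 of day 48. It was 6 without T.mu replicate 1 of day 14, 4 without T.mu replicate 3 of day 3 and 9 without T.mu replicate 3 of day 48. Rpl22l1 passed in each of 14 other analyses checked for it, of which 1 left out a single library (T.mu replicate 3 of day 3). Each of the 20 libraries was left out in turn, and the result of Rpl22l1 in the rest of those fits is not given here. In the same comparison 6 of 12 epithelial markers rose and 0 fell, among them Cldn3 (0.76 ± 0.16, adjusted p = 0.0022, edgeR), Krt20 (0.59 ± 0.14, adjusted p = 0.0083) and Krt8 (0.59 ± 0.14, adjusted p = 0.0085). Of 20 stem and proliferating cell markers 1 rose, Mcm2 (1.1 ± 0.28, adjusted p = 0.0151). Their part in the fall of the members was not tested.

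In total tissue at day 3 and day 14 no member was called, and the family as a whole was not tested. At day 3, 0 of 80 members passed (edgeR; 0.00855% of all genes fell and 0.47% rose), and 1 had an unadjusted p under 0.05, against 5.18% of all genes. The shares were 1.11%, 1.11% and 1.18% in controls and 1.03%, 1.16% and 1.1% with T.mu, which overlapped. The member median was -0.12 against -0.01 for all genes. Of the 80 members 62 had a log2 fold change below 0, against 51.2% of all genes. By litter, the member median was -0.04, -0.20 and -0.09. Rpl29 (-0.61 ± 0.29, adjusted p = 0.934), Rpl18 and Rps10 (both adjusted p = 0.999) had the smallest p. In 16 of 80 members every T.mu library lay under every control, against 7.61% of all genes.

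At day 14, 0 of 80 members passed (edgeR; 0.145% of all genes fell and 0.804% rose), with 5 at an unadjusted p under 0.05, against 9.23% of all genes. In 5 members every T.mu library lay under every control, against 4.67%. DESeq2 and limma voom called 0 at both days. The shares were 0.879%, 0.961% and 0.971% in controls and 1.14%, 0.883% and 0.772% with T.mu. Fau (0.59 ± 0.21), Rps23 (-0.82 ± 0.30) and Rpl27 (0.95 ± 0.40) had the smallest p, with adjusted p from 0.234 to 0.39. Control replicates 1 and 2 of this day held 351445 and 220717 counts, and Rpl27 had 11.5, 0 and 32.6 CPM in the controls, so its difference rests on few counts.

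In total tissue at day 48 the family was again lower with T.mu. The members took 1.15%, 1.05%, 1.26% and 1.01% of the mouse counts in controls and 0.823%, 0.694%, 0.848% and 0.654% with T.mu. The groups did not overlap, and the mean share was 32.3% lower. Past the threshold 4 members fell and 0 rose, where 0.795% of 11696 genes fell and 1% rose. In 21 members every T.mu library lay under every control, against 6.71% of all genes. At an unadjusted p under 0.05, 37 members were lower, against 13.6% of all genes in either direction. The member median was -0.41, and the median over all genes was itself below 0, at -0.11. Other short genes lay closer to the members: under 500 bases 12 members had a median of -0.45 and 48 other coding genes -0.35, from 500 to 1000 bases 43 members had -0.41 and 589 others -0.26, and from 1000 to 2000 bases 21 members had -0.40 and 2379 others -0.17.

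Rpl8 (chr15:76904078-76906314, plus strand, 6 exons) had 350, 314, 378 and 317 CPM in controls and 162, 184, 238 and 152 with T.mu. The groups were apart, with a 1.81-fold lower level (-0.85 ± 0.16, adjusted p = 0.00061, edgeR). Rps26 (chr10:128624534-128626747, minus strand, 4 exons) had 118, 101, 121 and 103 CPM in controls and 64.8, 61.9, 66.5 and 33.7 with T.mu (-0.90 ± 0.20, adjusted p = 0.0069). The lowest of these libraries held 8 reads of Rps26.

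Rplp0 (chr5:115559467-115563727, plus strand, 7 exons) had 306, 306, 387 and 327 CPM in controls and 162, 178, 286 and 177 with T.mu (-0.69 ± 0.17, adjusted p = 0.0153, edgeR). No T.mu library of Rps26 or Rplp0 reached its controls. Among members that did not pass, Rplp2 had the smallest p, with 99.1, 90.6, 101 and 101 CPM in controls and 64.8, 52.2, 72.8 and 33.7 with T.mu (-0.74 ± 0.21, adjusted p = 0.0554).

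**Figure D5:**
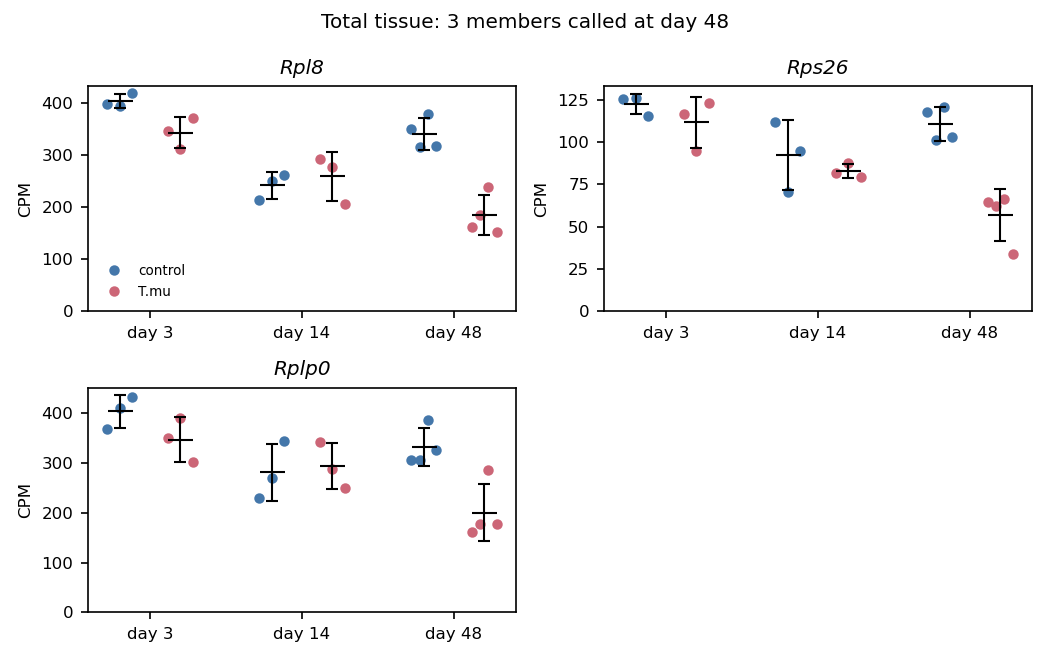
Levels (vertical axes, TMM-scaled CPM, from 0) in total tissue libraries by day for Rpl8, Rps26 and Rplp0, which fell at day 48; points are libraries and bars are the mean ± SD. At day 48 the 4 T.mu libraries lie under the 4 controls in each panel, while the groups overlap at day 14. At day 3 Rpl8 is also lower in every T.mu library (311 to 371 CPM) than in its controls (394 to 419), and Rps26 and Rplp0 overlap.

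Depth and a label part moved with the groups at this day. The 4 controls held 2223447 to 6756616 mouse counts and the 4 T.mu libraries 236155 to 1355659, and the second part of the library names was one code for the controls and another for the T.mu libraries. The inoculum and this name part cannot be told apart. With all tissue libraries thinned to one depth, an alternative chosen after seeing the data, 4 members were called, and Rps26 was no longer among them (-0.91, adjusted p = 0.0546, edgeR). The count was 2 without control replicate 3, T.mu replicate 2 or T.mu replicate 4, and 9 without T.mu replicate 3. Log2 fold changes of members were related to GC content with a Spearman correlation of -0.52, and over all genes of -0.38. With litter as a block and a correction for GC content and length the count was 1 (Rps26) and the median -0.34. Epithelial markers summed to 14583 to 17939 CPM in controls and 12287 to 18128 with T.mu, and smooth muscle markers to 5309 to 7557 and 3028 to 6005, both overlapping. Among single markers Cldn3 fell (-0.61 ± 0.15, adjusted p = 0.0131, edgeR), while Krt20 (0.55 ± 0.14, adjusted p = 0.0253) and the plasma cell gene Jchain (0.90 ± 0.19, adjusted p = 0.0035) rose. Their part in the result was not tested.

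Over the 3 days in total tissue 0 of 80 members passed (edgeR; 0.402% of all genes fell and 1.5% rose), while 18 had an unadjusted p under 0.05, against 10.9% of all genes, and DESeq2 called 2. Rpl8 (-0.33 ± 0.10, adjusted p = 0.0801), Rps26 (-0.40 ± 0.12, adjusted p = 0.0818) and Rplp1 (-0.33 ± 0.11, adjusted p = 0.124) had the smallest p. The test of equal daily differences called 0 members, against 0.0684% of all genes, with 18 members and 9.74% of all genes at an unadjusted p under 0.05 and Rpl8 first (adjusted p = 0.15).

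Whether the 2 preparations responded differently was tested as an interaction over all 40 libraries. It called 0 members at each day (edgeR), where it called 0.0338% of all genes at day 3 and 0.0338% at day 48 in either direction and 0 at day 14. At an unadjusted p under 0.05 there were 4 members at day 3, 28 at day 14, and 11 at day 48, against 10.7%, 7.12% and 9.3% of all genes, and DESeq2 called 0, 6 and 1. At day 14 the member median was -0.57, with Rpl32 first by p (-1.30, adjusted p = 0.216). At day 48 Rpl8 (1.05) and Rplp0 (1.01) were first, each with an adjusted p of 0.158. The contrast of day 48 shares the limit given for total tissue, whose T.mu libraries differed from all others of that day in the second name part. At day 14 that name part differed between the preparations, controls included. Across the 80 members, the log2 fold changes of epithelium at day 14 and total tissue at day 48 had a Spearman correlation of -0.10, close to the -0.09 over 9588 genes, a description across genes of 2 comparisons that share no library. Of the 80 members 65 had a log2 fold change below 0 in both.

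Other genes of protein synthesis come from lists of the pathway. In epithelium at day 14, 0 of 74 tested genes of ribosome assembly and ribosomal RNA processing passed (median 0.13), as did 0 of 12 of RNA polymerase I (0.28), 0 of 34 initiation factors (0.13), 0 of 12 elongation and termination factors (-0.06) and 0 of 27 of the mTORC1 pathway (0.20). Of 77 mitochondrial ribosomal protein genes 1 fell, Mrpl52 (-1.03 ± 0.26, adjusted p = 0.0393, edgeR), and their median was 0.00. The 24 messages outside the members with a TOP start had a median of -0.18 and 0 past the threshold. This list includes Rack1 and shares Eef1b2 and Eif3f with the factor lists. Of 73 nuclear-encoded respiratory chain genes, many of them short too, 1 fell, Cox7c (-0.98 ± 0.23, adjusted p = 0.021), with a median of -0.40. Of 22 type I interferon response genes 13 rose, with a median of 2.23.

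Over the days in epithelium, Gas5 (-0.72 ± 0.17, adjusted p = 0.0082, edgeR) and Snhg8 (-1.05 ± 0.27, adjusted p = 0.0149), non-coding hosts of small nucleolar RNAs with a TOP start, were the 2 of 24 that fell. Among translation factors Eif2a fell (-0.65 ± 0.17, adjusted p = 0.0208) and Eif5a, which helps ribosomes past difficult peptide bonds, rose (0.88 ± 0.20, adjusted p = 0.0138). In the mTORC1 pathway list Pdcd4 fell (-0.58 ± 0.17, adjusted p = 0.0459, edgeR) and Lamtor1 rose (0.64 ± 0.19, adjusted p = 0.0459). In total tissue at day 48, 3 of 76 mitochondrial ribosomal protein genes fell, Mrps28, Mrpl36 and Mrpl28, with a list median of -0.19. Of 35 initiation factors there, Eif2s2 rose (0.80 ± 0.18, adjusted p = 0.0069) and Eif3k fell (-0.80 ± 0.21, adjusted p = 0.0266). Of 75 assembly genes 0 passed, with a median of -0.26.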

How the data were processed

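Libraries were of the 3′ digital gene expression kind, per the labels' protocols. The authors deposited 1 table of raw counts, whole numbers by gene and library. The submitters' processing notes list STAR and Subread with neither a version nor a role. The build, the annotation, the strand setting and the handling of molecular tags are not given in the sources used here. The 1 row without a mouse ID (0.389% of counts) entered no library size and no test. Between 61.2% and 87.2% of small counts in a library were even, so low counts are less precise than their size implies.

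Symbols came from GENCODE M21 (GRCm38) for 98.8% of the 45792 IDs, and start regions from RefSeq (GRCm38.p6). GC content and length are of the transcript with the best APPRIS rank, then support level, which need not be the one expressed. Counts were tested with edgeR 4.0.16 in R 4.3.3 (quasi-likelihood, TMM, filterByExpr with minimum count 10 and total 15), in fits of 20 libraries per preparation and of all 40 for comparisons between them. P-values were adjusted by Benjamini-Hochberg over all genes, with a threshold of 0.05. Shares of counts were described without a test. The method was tested on simulated data. Replicates are libraries of separate litters in the labels. Pairs of libraries within a group differed by a chi-square per degree of freedom of 2.75 to 61.3. This value makes no allowance for the excess of even counts, so the lowest ones need not exceed sampling noise.

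The members, lists and comparisons were chosen with earlier results of these data known. Named members are those past the threshold (at most 12 per comparison), the 3 with the smallest p in each T.mu comparison, the 4 highest and lowest between preparations, and a set of paralogs and well-known members named whatever their result. Results for some genes are not reported here. Members named outside this rule (Rpl3l, Rpl10l, Rpl39l, Rpl24) were chosen for their low counts.

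A litter number, given in the labels of each of the 40 libraries, pairs control and T.mu libraries. Deviations of same-litter libraries correlated between -0.10 and 0.19, and those of different litters between -0.18 and 0.16. Alternatives were RLE scaling, scaling without the members and ribosomal RNA, DESeq2 1.42.0, limma voom 3.58.1, no filter, halved counts, no libraries under 400000 counts, litter as a block with and without a GC and length correction, only the libraries of a comparison, and leaving out each library. Thinning to one depth, leaving ribosomal RNA and mitochondrial rows out of the scaling, and leaving out pairs of T.mu libraries of epithelium at day 48 were added after seeing the data. No column lacked a sample.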

Additional observations from a re-analysis of the deposited data

Results flagged for a closer look

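Of 32 sets of 4 values (1 measure in 1 group of libraries) tested for a library far from the others, 2 held one, about the number chance gives at 1 in 20. In total tissue at day 48 with T.mu, replicate 3 had 286 CPM of Rplp0 and the other 3 libraries 162 to 178. In the same group replicate 4 had 33.7 CPM of Rps26 and the others 61.9 to 66.5. The groups of 3 libraries were too small for this test.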

How the results depend on the processing

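Litter as a replicate block removed no call of a named member, and whether it added one is not given here. With the block 8 members were called in epithelium at day 14 (6 without it), 6 in total tissue at day 48 (4 without it) and 20 over the days in epithelium. With the block and the GC and length correction these counts were 11, 1 and 10, and the median in epithelium at day 14 was -0.42.

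In epithelium at day 14 the count was 14 with DESeq2, 12 with limma voom, 12 with halved counts, 16 without libraries under 400000 counts, and 34 with the libraries of the comparison alone. Leaving out a library gave 0 to 4. Over the days it was 3 without T.mu replicates 1 and 3 of day 48, 34 without replicates 2 and 4, 8 without the shallow libraries and 4 to 25 with a library left out. At day 48, leaving out replicates 2 and 4 gave 4 members and a median of -0.45. In total tissue at day 48 it was 9 with DESeq2, 1 with limma voom, 11 without a filter (median -0.57), 2 with the libraries of the comparison alone and 2 to 9 with a library left out. Over the days in tissue, where 0 were called, the count was 2 with DESeq2, and 1 with RLE scaling, halved counts or libraries thinned to one depth, and 0 to 2 with a library left out. The test between days in tissue gave 1 with DESeq2, 1 without a filter and 0 to 1 with a library left out. The interaction gave 6 with DESeq2 at day 14 (0 to 2 with a library left out), 1 with DESeq2 and 2 without a filter at day 48 (0 to 1), and 0 to 1 with a library left out at day 3. Leaving out a library gave 0 to 1 in epithelium at day 3 and in tissue at day 14, where thinning moved the median to -0.17. Outside ribosomal and mitochondrial RNA the log2 ratio of the member share moved from 0.08 to -0.10 in epithelium at day 3 and from -0.56 to -0.46 in tissue at day 48 (-0.62 to -0.50 with a library left out). The causes were not tested. Calls between control preparations stayed at 71 to 79. Depth limits the low members: the 4 shallow tissue libraries held 1545 to 3090 member counts.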
